A study of Homo sapiens with 4 samples.

Results

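Ribosome biogenesis factors are the proteins that build ribosomal subunits without being part of the finished ribosome. A list of 56 of them was examined in MDA-MB-231 cells, an established human breast carcinoma line of mesenchymal-like character. A member was taken to be measured where the platform annotation gave its symbol, or an older alias matched by Entrez identifier, to a probe set. This held for 50 of the 56 members, each with 1 probe set, among 15870 genes with a named probe set. No named probe set was found for WDR43, BOP1, EBNA1BP2, GNL3, NOP56 and DKC1, which were not analysed here. Total RNA was hybridised to 4 arrays, 2 of cells labelled shDROSHA, which carried a short hairpin RNA against DROSHA, and 2 of cells labelled shNC. The sample titles call the 2 arrays of each group biological replicates. The series' design text describes the control as mock-transfected, and which wording fits the shNC cells was not settled here. All 4 samples are the same cell line, grown in the same serum-supplemented medium, and the labels do not say whether the hairpin cells were a pool or a clone.

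Ribosomes are assembled mainly in the nucleolus. RNA polymerase I transcribes a long precursor of ribosomal RNA, small nucleolar ribonucleoproteins (snoRNPs) guide its chemical modification, and separate sets of factors then fold, cut and export the small and the large subunit. The output of this pathway is known to follow cell growth and to be high in many proliferating tumour cells. Members were grouped by their textbook roles into small-subunit assembly (25 listed), large-subunit assembly (14), snoRNPs (8), nucleolar proteins with several roles (4) and RNA polymerase I transcription (5).

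DROSHA, the nuclear ribonuclease that the hairpin targets, had log2 signals of 8.71 and 8.74 in the shDROSHA arrays, against 9.66 and 9.76 in the shNC arrays. The groups did not overlap, and the level in shDROSHA cells was 1.98-fold lower (adjusted p = 3.89e-06 in limma with its prior variance fitted as a trend over signal, here the trended fit). With 1 constant prior variance for all probe sets (the constant fit) DROSHA did not pass (adjusted p = 0.0843 in limma). Markers typical of this line (VIM, CD44, AXL, MSN and PLAU) lay at the 84.8 to 98.7 percentile of probe set signals. Of these 5, AXL rose by 0.33 (adjusted p = 0.00442), and MSN (-0.22, adjusted p = 0.0133) and PLAU (-0.26, adjusted p = 0.0118) fell. The luminal and epithelial markers ESR1, EPCAM and GATA3 lay at the 29.9 to 47.3 percentile. Of 11 measured markers of leukocytes, endothelium and fibroblasts, 0 rose and 0 fell, and their percentiles ran from 3.42 to 68.4. Most were dim, and few dim probe sets passed in either direction. From the dimmest of 5 equal signal bins upward, 31 of 3720, 72 of 3721 and 175 of 3720 passed. The 0 calls therefore say little about such cells. Summed log2 signals of the 4 leukocyte markers were 24 in both shDROSHA arrays and 23.5 to 23.8 in the shNC arrays. Those of the 3 endothelial markers were 19.2 to 19.3 in the shDROSHA arrays and 18.9 to 19 in the shNC arrays, and those of the 4 fibroblast markers 26 to 26.6 and 25.8 to 26.3. Their part in the results below was not tested.

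Ribosome biogenesis factors were mostly higher in shDROSHA cells, by small amounts. Of the 50 measured members 44 were higher and 6 lower. In the trended fit (adjusted p threshold 0.05, over all 18603 probe sets) 11 rose, 0 fell and 39 did not pass. The members that rose were UTP20, LTV1, UTP4, WDR75 and WDR3 of small-subunit assembly, RRP15, MRTO4 and NIP7 of large-subunit assembly, the snoRNP proteins GAR1 and NOLC1, and the helicase DDX21. The same fit called 3.12% of all probe sets higher and 3.28% lower, against 22% and 0% of the members. With each array centred on its median it called 747 probe sets higher and 448 lower, against 581 and 611 as deposited, and 12 members rose. The median log2 fold change was 0.15 over the members and 0.00 over all probe sets, and the members ranged from -0.26 to 0.48. Both shDROSHA arrays exceeded both shNC arrays for 38 members (76%), which was so for 23.4% of all probe sets. Both lay below both shNC arrays for 2 members, RRS1 and NHP2, against 24.4% of all probe sets. The arrays of the groups overlapped for the other 10.

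These calls depended on how the spread was modelled and on a control array. In the constant fit, which did not pass DROSHA either, 0 members passed and the lowest adjusted p was 0.17. That fit called 0.00538% of all probe sets. At an unadjusted p under 0.05 in the constant limma fit, 11 members were higher and 1, RRS1, was lower, with 6.8% of all probe sets being higher by that rule. Without shNC replicate 1, 5 members rose in the trended fit (UTP20, LTV1, RRP15, NOLC1 and DDX21), whereas GAR1, MRTO4, NIP7, UTP4, WDR3 and WDR75 did not pass. Of all probe sets 249 (1.34%) were called higher without that array, against 581 with it.

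**Figure D1:**
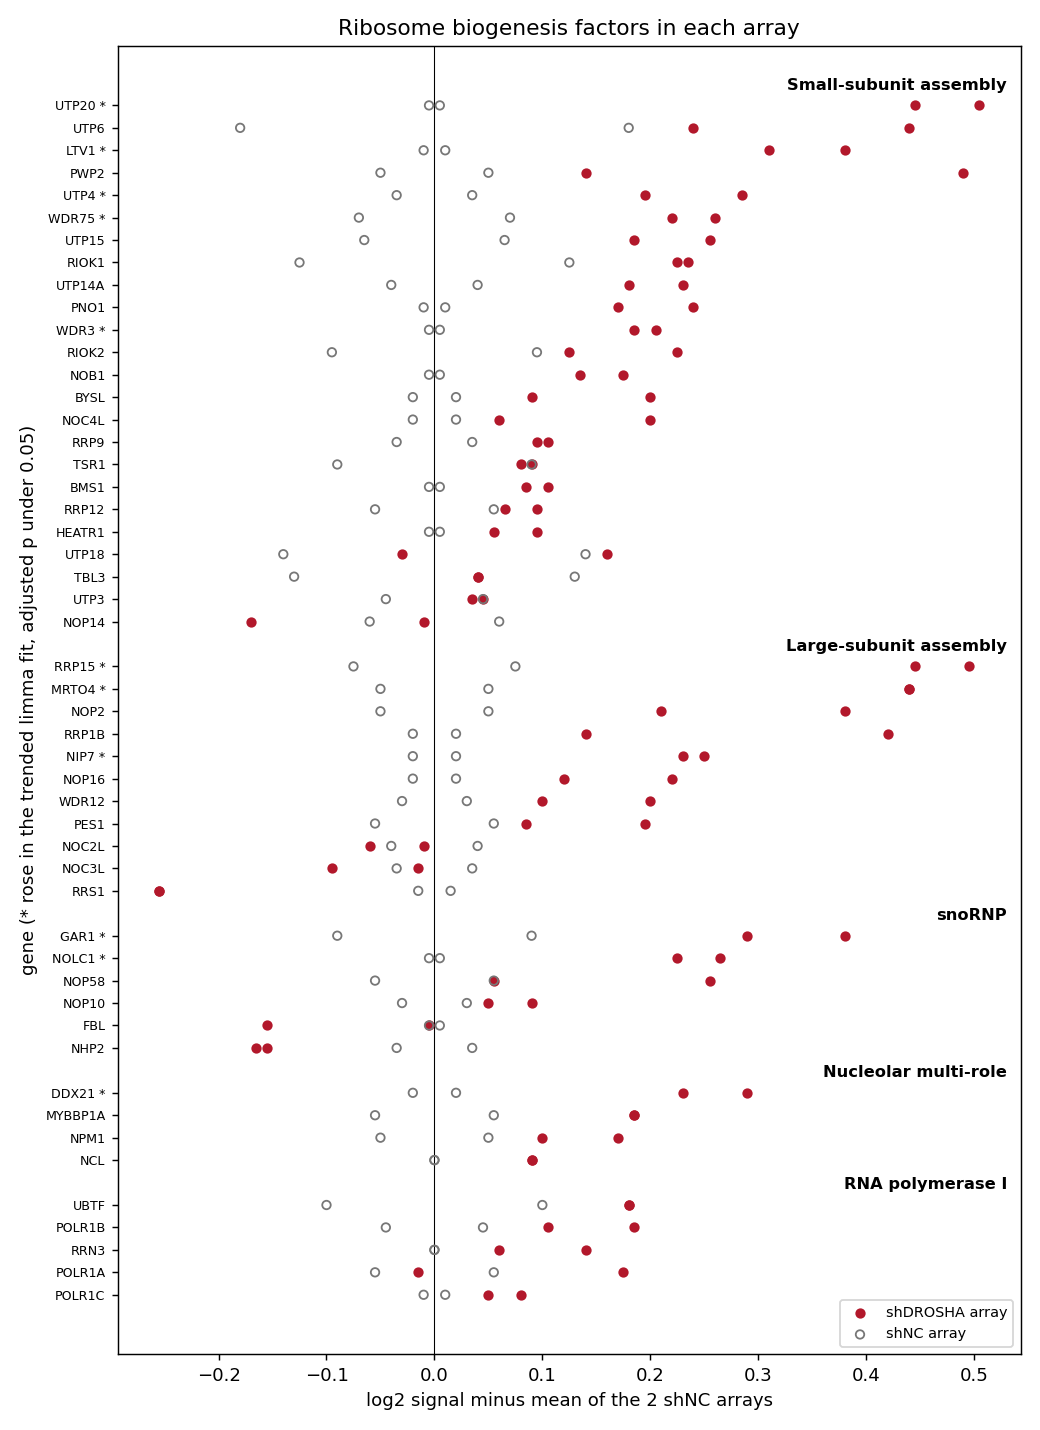
Log2 signal of each measured member in each array minus its mean over the 2 shNC arrays, with filled points for the shDROSHA arrays and open points for the shNC arrays. Rows are ordered by log2 fold change within each class, stars mark the 11 members that rose, and for 38 members both filled points lie to the right of both open points.

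The promoter windows of several members that rose are shown because many ribosome biogenesis genes are textbook carriers of an E-box near the start site, a motif bound by MYC and related factors. Windows reach from 250 bases before to 50 bases after an annotated transcript start and were taken from RefSeq (GRCh38.p14), 5′ to 3′ on the gene's strand. They were available for 45 of the 50 measured members. Capitals mark the E-box CACGTG, which reads the same on both strands, and the ETS-type motif CCGGAAG or its reverse complement CTTCCGG. The E-box cannot overlap the ETS-type motif or its reverse complement. UTP20 (chr12:101279855-101280154, plus strand), LTV1 (chr6:143843088-143843387, plus strand), MRTO4 (chr1:19251555-19251854, plus strand) and UTP4 (chr16:69132399-69132698, plus strand) rose and hold an E-box. So does DDX21, in the second of its 2 annotated windows (chr10:68956397-68956696, plus strand). RRP15 (chr1:218285043-218285342, plus strand) rose and holds only the ETS-type motif, and WDR75 (chr2:189441224-189441523, plus strand) rose and holds neither. Of 2 lower members that did not pass, FBL (chr19:39846330-39846629, minus strand) holds both motifs and NHP2 (chr5:178153836-178154135, minus strand) neither.
UTP20: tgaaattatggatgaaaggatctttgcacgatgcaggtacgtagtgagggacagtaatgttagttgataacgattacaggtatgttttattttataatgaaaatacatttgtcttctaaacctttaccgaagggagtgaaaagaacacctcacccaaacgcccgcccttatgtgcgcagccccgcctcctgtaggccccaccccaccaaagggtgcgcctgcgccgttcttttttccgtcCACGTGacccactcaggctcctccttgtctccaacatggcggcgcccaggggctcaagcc
LTV1: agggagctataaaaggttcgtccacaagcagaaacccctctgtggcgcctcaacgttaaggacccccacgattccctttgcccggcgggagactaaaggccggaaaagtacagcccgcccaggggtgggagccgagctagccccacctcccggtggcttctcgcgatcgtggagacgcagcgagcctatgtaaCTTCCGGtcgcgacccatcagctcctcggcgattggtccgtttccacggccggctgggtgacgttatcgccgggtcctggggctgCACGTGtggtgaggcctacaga
MRTO4: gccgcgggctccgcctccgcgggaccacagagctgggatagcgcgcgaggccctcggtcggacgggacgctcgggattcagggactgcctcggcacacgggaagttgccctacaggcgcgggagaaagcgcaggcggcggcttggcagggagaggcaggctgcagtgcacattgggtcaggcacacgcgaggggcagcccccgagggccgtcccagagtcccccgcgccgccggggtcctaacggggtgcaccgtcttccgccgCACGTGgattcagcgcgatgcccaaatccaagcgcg
UTP4: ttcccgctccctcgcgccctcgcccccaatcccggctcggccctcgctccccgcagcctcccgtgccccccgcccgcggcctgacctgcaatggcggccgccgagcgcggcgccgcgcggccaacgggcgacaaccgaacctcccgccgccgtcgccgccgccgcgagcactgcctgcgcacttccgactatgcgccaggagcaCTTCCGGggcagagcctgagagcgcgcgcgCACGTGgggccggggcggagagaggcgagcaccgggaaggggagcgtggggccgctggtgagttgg
DDX21: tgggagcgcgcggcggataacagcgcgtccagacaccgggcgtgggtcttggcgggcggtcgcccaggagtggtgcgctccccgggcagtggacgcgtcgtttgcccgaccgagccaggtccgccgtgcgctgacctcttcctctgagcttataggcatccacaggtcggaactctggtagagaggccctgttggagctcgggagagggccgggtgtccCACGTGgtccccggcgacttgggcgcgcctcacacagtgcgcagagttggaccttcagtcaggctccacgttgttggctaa
RRP15: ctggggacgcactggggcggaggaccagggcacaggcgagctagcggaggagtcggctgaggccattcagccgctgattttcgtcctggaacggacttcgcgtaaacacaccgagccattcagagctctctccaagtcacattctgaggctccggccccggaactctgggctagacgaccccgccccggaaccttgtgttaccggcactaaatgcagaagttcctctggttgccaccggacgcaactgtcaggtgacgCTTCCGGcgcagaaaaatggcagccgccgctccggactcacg
WDR75: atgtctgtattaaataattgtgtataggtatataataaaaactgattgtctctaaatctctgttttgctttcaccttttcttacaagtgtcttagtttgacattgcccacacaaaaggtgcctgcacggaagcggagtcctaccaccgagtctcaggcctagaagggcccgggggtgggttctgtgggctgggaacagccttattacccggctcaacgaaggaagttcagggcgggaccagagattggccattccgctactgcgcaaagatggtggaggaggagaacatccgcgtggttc
FBL: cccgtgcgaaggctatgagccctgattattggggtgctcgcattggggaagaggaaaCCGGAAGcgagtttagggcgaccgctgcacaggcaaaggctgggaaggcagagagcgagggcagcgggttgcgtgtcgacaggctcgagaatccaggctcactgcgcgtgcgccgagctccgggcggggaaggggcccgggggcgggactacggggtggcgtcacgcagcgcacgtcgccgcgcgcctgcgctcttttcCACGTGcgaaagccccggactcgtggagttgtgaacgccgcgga
NHP2: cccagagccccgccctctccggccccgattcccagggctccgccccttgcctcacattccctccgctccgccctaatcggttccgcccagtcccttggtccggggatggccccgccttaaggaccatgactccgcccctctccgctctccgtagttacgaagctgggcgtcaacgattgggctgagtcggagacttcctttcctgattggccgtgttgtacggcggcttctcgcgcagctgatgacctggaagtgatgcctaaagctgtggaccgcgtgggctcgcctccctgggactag

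The E-box was found for 19 of the 45 measured members with a window (42.2%), counting a gene once if any of its windows held the motif. It was found for 11.4% of the 12805 genes with a named probe set and a window, and for 8.77% of all 27305 genes of the table. Among members with a single annotated window the share was 43.6%, against 9.29% of the array's genes with a single window. By response, 6 of the 10 members that rose and have a window held an E-box (UTP20, LTV1, MRTO4, UTP4, and DDX21 and GAR1 in their second windows), as did 13 of the 35 that did not pass. With a single window it was 4 of 8 (50%) and 13 of 31 (41.9%). Of the 5 lower members with a window 3 held it (NOP14, NOC3L and FBL). By class, it was found in 10 of 23 small-subunit factors, 4 of 9 large-subunit factors, 3 of 4 snoRNP proteins, 2 of 4 multi-role proteins and 0 of 5 RNA polymerase I factors. The ETS-type motif was found for 21 of the 45 members (46.7%), against 17.9% of the array's genes. Among 82 other measured genes of the pathway with a window, a second list described further on, the E-box was found for 24.4% and the ETS-type motif for 40.2%. Of the 21 E-box matches in the members, 19 lay within 100 bases of the annotated start. The match of UTP20 began 10 bases before the start, that of UTP4 16 bases before it, and those of MRTO4 and LTV1 at positions 15 and 29 after it. These are letter matches in a fixed window, and no binding was measured. MYC itself had log2 signals of 8.37 and 8.31 in the shDROSHA arrays, against 8.23 and 8.26 in the shNC arrays, and did not pass (log2 fold change 0.09, SE 0.090, adjusted p = 0.658 in limma's trended fit).

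**Figure D2:**
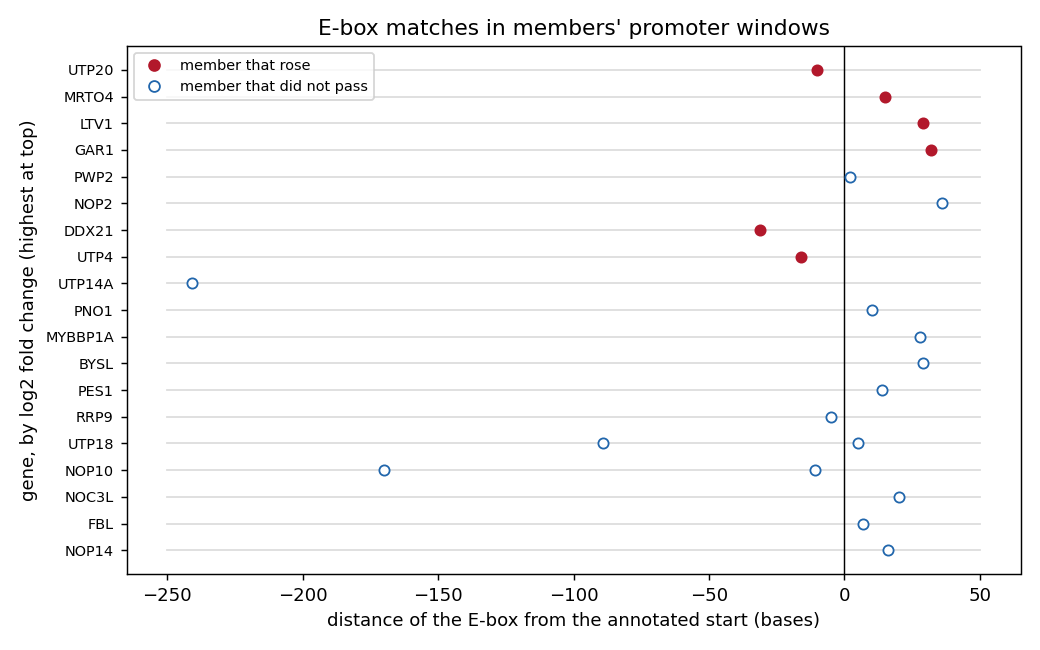
Position of each E-box match in the promoter windows of the 19 measured members that hold the motif, in bases from the annotated start at the vertical line, with genes ordered by log2 fold change. Filled points are members that rose, open points members that did not pass, and 19 of the 21 matches lie within 100 bases of the start.

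Small-subunit assembly factors were higher almost throughout. Of 24 measured, 23 were higher, with 5 that rose and 0 that fell, and with a median log2 fold change of 0.16 and a range of -0.09 to 0.48. Over all probe sets 50.2% were higher, and the trended fit called 3.12% higher and 3.28% lower. UTP20 is a very long scaffold protein of the small-subunit processome, the particle that forms on the nascent precursor RNA. UTP20 had log2 signals of 8.80 and 8.86 in the shDROSHA arrays, against 8.35 and 8.36 in the shNC arrays, and was 1.39-fold higher (log2 fold change 0.48, SE 0.083, adjusted p = 0.00348). It was the member with the highest log2 fold change, with the arrays of each group close together. LTV1, a late factor that leaves the precursor of the small subunit during its final maturation, had 10.53 and 10.46 in the shDROSHA arrays, against 10.14 and 10.16 in the shNC arrays. Its level was 1.27-fold higher (log2 fold change 0.34, SE 0.056, adjusted p = 0.00226).

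UtpA and UtpB are the complexes that bind the precursor RNA first. All 4 measured UtpA members were higher without overlap of the groups, with a median log2 fold change of 0.23. Such separation was seen for 76% of all members and 23.4% of all probe sets. UTP4 had log2 signals of 11.12 and 11.21 in the shDROSHA arrays, against 10.89 and 10.96 in the shNC arrays (log2 fold change 0.25, SE 0.051, adjusted p = 0.0101). Without shNC replicate 1 the UTP4 difference was 0.21 (adjusted p = 0.1). WDR75 had 10.70 and 10.66 in the shDROSHA arrays, against 10.37 and 10.51 in the shNC arrays (0.24, SE 0.059, adjusted p = 0.0244). In WDR75 the distance between the shNC arrays was the wider, and without shNC replicate 1 its log2 fold change was 0.17 (adjusted p = 0.262). HEATR1, a large UtpA subunit also needed for transcription of ribosomal DNA, differed by 0.08 (SE 0.056, adjusted p = 0.506), and UTP15 by 0.22 (SE 0.112, adjusted p = 0.307).

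Of the 5 UtpB members, all higher with a median of 0.20, only WDR3 passed. WDR3 had log2 signals of 10.78 and 10.80 in the shDROSHA arrays, against 10.59 and 10.60 in the shNC arrays (log2 fold change 0.20, SE 0.050, adjusted p = 0.03). It kept nearly the same log2 fold change (0.19 to 0.21) when any array was left out. WDR3 did not pass without shDROSHA replicate 2 (adjusted p = 0.0657), shNC replicate 1 (0.175) or shNC replicate 2 (0.107). UTP6 and PWP2 showed larger differences that did not pass, and their arrays lay further apart within groups. UTP6 had 8.41 and 8.61 in the shDROSHA arrays, against 7.99 and 8.35 in the shNC arrays (0.34, SE 0.117, adjusted p = 0.107). PWP2 had 7.68 and 7.33 in the shDROSHA arrays, against 7.14 and 7.24 in the shNC arrays (0.31, SE 0.135, adjusted p = 0.215). TBL3 differed by 0.04 and UTP18 by 0.07, and the arrays of both groups overlapped for each.

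The other 6 processome factors beside UTP20 and the other 7 late factors beside LTV1 did not pass. Among processome factors UTP14A, a helicase cofactor, was higher by 0.21 (SE 0.073, adjusted p = 0.121). RRP9, a component of the U3 snoRNP, was higher by 0.10 and BMS1, a GTP-binding protein, by 0.09. NOP14 was the only small-subunit factor that was lower, with log2 signals of 9.47 and 9.31 in the shDROSHA arrays, against 9.54 and 9.42 in the shNC arrays (-0.09, SE 0.077, adjusted p = 0.608). Its groups overlapped. All 8 late factors were higher, with a median of 0.16. The groups were apart for 7 of them, as for 76% of all members and 23.4% of all probe sets in this direction. PNO1, which holds the endonuclease NOB1 on the precursor of the small subunit, was higher by 0.20 (SE 0.074, adjusted p = 0.138), and NOB1 itself by 0.16 (SE 0.058, adjusted p = 0.142). The atypical kinases RIOK1 and RIOK2 were higher by 0.22 and 0.17, and the lowest late factors were RRP12 (0.08) and TSR1 (0.09). BMS1, UTP14A, NPM1 and RRN3 have closely similar pseudogene or retrogene copies, and whether their probe sets tell these apart is not known.

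Large-subunit assembly factors held the widest spread, from -0.26 to 0.47, with both rising and lower members. Of 11 measured, 8 were higher, 3 rose and 0 fell, and the median was 0.17. The array-wide shares were 50.2% higher, 3.12% called higher and 3.28% called lower. RRP15, a nucleolar factor of the early large subunit, had log2 signals of 10.17 and 10.22 in the shDROSHA arrays, against 9.65 and 9.80 in the shNC arrays. It was 1.39-fold higher (log2 fold change 0.47, SE 0.066, adjusted p = 0.000732), the lowest adjusted p among the members. MRTO4, which occupies the site of the ribosomal stalk until late in assembly, had 8.11 and 8.11 in the shDROSHA arrays, against 7.62 and 7.72 in the shNC arrays (0.44, SE 0.101, adjusted p = 0.0173). Without shNC replicate 1 the MRTO4 difference was 0.40 (adjusted p = 0.138). NIP7, a pre-ribosomal RNA-binding protein placed here by its role in yeast, had 11.38 and 11.36 in the shDROSHA arrays, against 11.11 and 11.15 in the shNC arrays (0.24, SE 0.045, adjusted p = 0.00553). Without shNC replicate 1 the NIP7 difference was 0.22 (adjusted p = 0.0569). In all 3 the arrays of the groups were apart, which is no separate evidence for members picked because they passed.

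RRS1 stood at the other end of the list. RRS1, which helps to insert the 5S ribonucleoprotein into the large subunit, had log2 signals of 8.16 and 8.16 in the shDROSHA arrays, against 8.40 and 8.43 in the shNC arrays. The groups did not overlap and its log2 fold change was -0.26 (SE 0.089), but it did not pass (adjusted p = 0.112). The other lower members were NOC3L (-0.06, SE 0.077) and NOC2L (-0.03, SE 0.073), relatives of yeast factors that escort the large-subunit precursor, and their groups overlapped. WDR12 and PES1, which work together in the PeBoW complex, were higher by 0.15 and 0.14 without passing, and their partner BOP1 was not analysed here. NOP16 came closest to the threshold among the large-subunit factors that did not pass, higher by 0.17 (SE 0.050, adjusted p = 0.0646). RRP1B was higher by 0.28 and NOP2, a ribosomal RNA methyltransferase, by 0.29, with adjusted p of 0.123 and 0.321 in limma's trended fit. NOP2 was the dimmest measured member, at the 33.2 percentile of signals.

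The snoRNP proteins differed in the sign of their log2 fold changes, and neither lower protein passed. Of 6 measured, 4 were higher and 2 lower, 2 rose and 0 fell, and the median was 0.11. Among all probe sets 50.2% were higher, 3.12% were called higher and 3.28% lower. GAR1, a core protein of the H/ACA snoRNPs that direct pseudouridine formation, had log2 signals of 8.91 and 8.82 in the shDROSHA arrays, against 8.44 and 8.62 in the shNC arrays (log2 fold change 0.33, SE 0.089, adjusted p = 0.0393). The call of GAR1 was lost without shDROSHA replicate 1 (0.29, adjusted p = 0.0616) and without shNC replicate 1 (0.24, adjusted p = 0.323). NHP2, another core protein of the same particles, had 9.66 and 9.67 in the shDROSHA arrays, against 9.86 and 9.79 in the shNC arrays. NHP2 was lower in both shDROSHA arrays, by a log2 fold change of -0.16 (SE 0.064, adjusted p = 0.17) that did not pass. NOP10, the third measured core protein, was higher by 0.06 (SE 0.040, adjusted p = 0.425).

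NOLC1, a phosphoprotein that accompanies snoRNPs to the nucleolus, had log2 signals of 11.03 and 10.99 in the shDROSHA arrays, against 10.77 and 10.76 in the shNC arrays. It was 1.19-fold higher (log2 fold change 0.25, SE 0.048, adjusted p = 0.0074). Of the box C/D proteins, which act in 2'-O-methylation of ribosomal RNA, NOP58 was higher by 0.15 (SE 0.062, adjusted p = 0.173). FBL, the methyltransferase itself, had 10.74 and 10.59 in the shDROSHA arrays, against 10.74 and 10.75 in the shNC arrays (-0.08, SE 0.057, adjusted p = 0.523). For both box C/D proteins the groups overlapped.

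The 4 nucleolar proteins with several roles were all higher without overlap of the groups, and 1 of them rose. Groups were apart in this direction for 76% of all members and 23.4% of all probe sets, and 3.12% of all probe sets were called higher. DDX21, an RNA helicase that acts in both transcription and processing of ribosomal RNA, had log2 signals of 11.55 and 11.49 in the shDROSHA arrays, against 11.28 and 11.24 in the shNC arrays. It was 1.19-fold higher (log2 fold change 0.26, SE 0.045, adjusted p = 0.00375). NPM1 and NCL, abundant histone- and RNA-binding proteins of the nucleolus, differed by 0.13 (SE 0.044, adjusted p = 0.112) and 0.09 (SE 0.040, adjusted p = 0.233). MYBBP1A, a nucleolar partner of transcription factors and of RNA polymerase I, differed by 0.19 (SE 0.093, adjusted p = 0.297).

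The RNA polymerase I factors were higher by small amounts, and none of the 5 passed the trended fit (0 also at an unadjusted p under 0.05). That limma fit called 3.12% of all probe sets higher, and 19.3% had an unadjusted p under 0.05. In the brightest of 5 equal signal bins it called 9.67% higher, and 3.65% in the next. With such shares, 0 of 5 does not set this class apart. All 5 were higher, with a median of 0.10 and a range of 0.06 to 0.18. The groups were apart for 4 of them, as for 76% of all members and 23.4% of all probe sets in this direction. UBTF, which organises active ribosomal DNA, had log2 signals of 9.03 and 9.03 in the shDROSHA arrays, against 8.75 and 8.95 in the shNC arrays (log2 fold change 0.18, SE 0.084, adjusted p = 0.268). Its difference ran from 0.08 to 0.27 when single arrays were left out. RRN3, the factor that readies the polymerase for initiation, differed by 0.10 (SE 0.066, adjusted p = 0.469). The 2 largest subunits, POLR1A and POLR1B, differed by 0.08 (SE 0.094) and 0.14 (SE 0.092), and POLR1C, which RNA polymerase III shares, by 0.06 (SE 0.069).

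**Figure D3:**
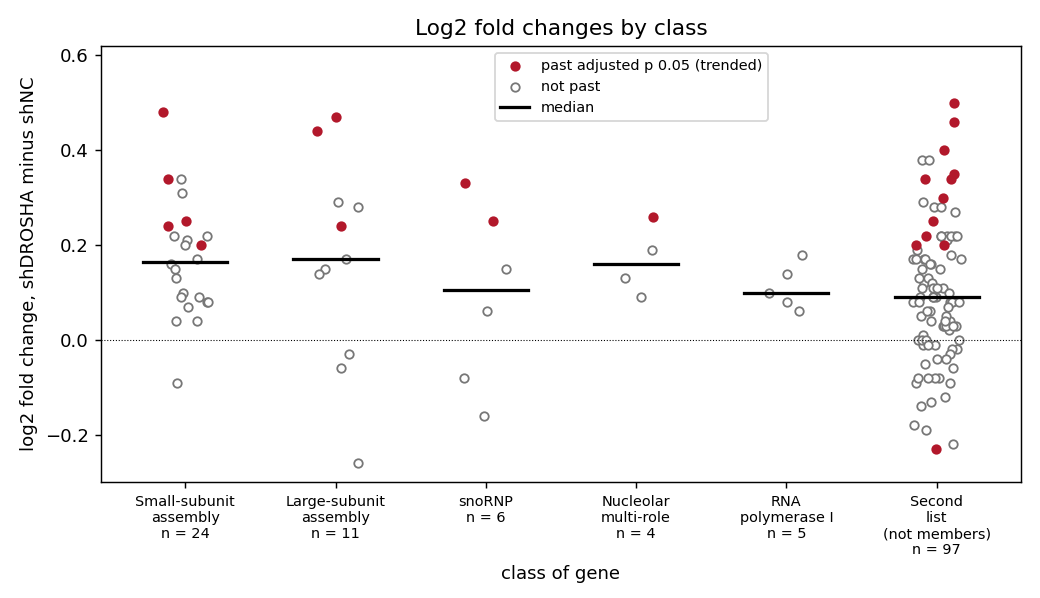
Log2 fold change (shDROSHA minus shNC) of each measured gene by class, with filled points past adjusted p 0.05 in the trended fit, open points not past it and bars at class medians. Medians are 0.16 for small-subunit, 0.17 for large-subunit, 0.11 for snoRNP, 0.16 for multi-role and 0.10 for RNA polymerase I members, and 0.09 for the 97 other genes of the pathway.

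Set side by side, small- and large-subunit factors had nearly the same median, and the difference of the medians was -0.004. Over members, the SD of the log2 fold changes was 0.121 for small-subunit factors, 0.218 for large-subunit factors and 0.046 for RNA polymerase I factors. Averaged over each class and set against the mean of its shNC arrays, the small-subunit factors lay at 0.178 and 0.166 on the log2 scale in the shDROSHA arrays, against -0.021 and 0.021 in the shNC arrays. The large-subunit factors lay at 0.166 and 0.166 in the shDROSHA arrays, against -0.005 and 0.005 in the shNC arrays. The RNA polymerase I factors lay at 0.134 and 0.093 in the shDROSHA arrays, against -0.038 and 0.038 in the shNC arrays. These class means were higher in both shDROSHA arrays than in both shNC arrays, and among these classes the gap was narrowest for RNA polymerase I. The snoRNP proteins lay lower still in the shDROSHA arrays, at 0.102 and 0.085, against -0.023 and 0.023 in the shNC arrays. Members of a class are not replicates, and the differences between classes were not tested.

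**Figure D4:**
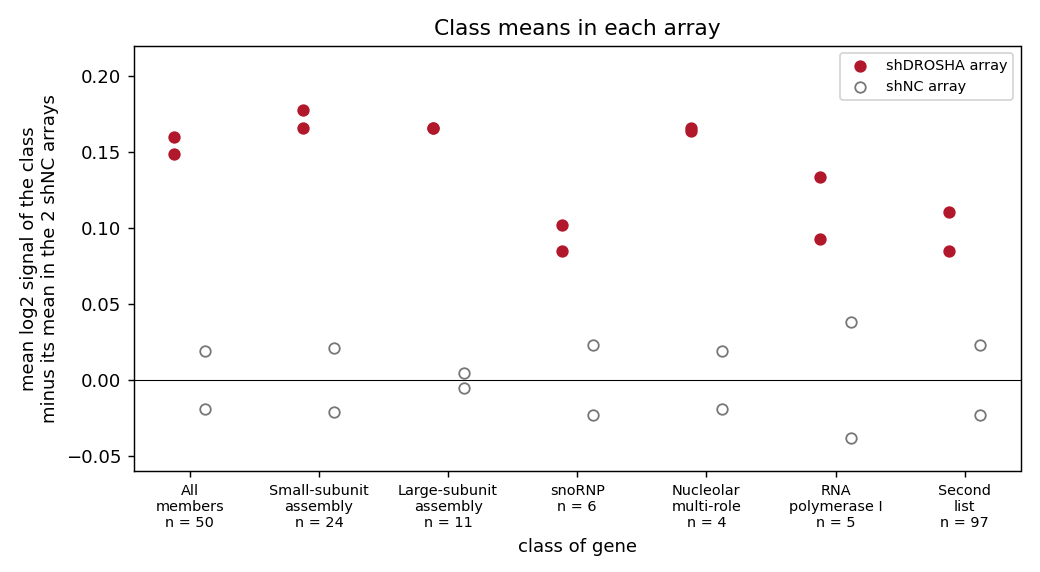
Mean log2 signal of each class in each array minus its mean over the 2 shNC arrays, with filled points for shDROSHA arrays and open points for shNC arrays. In all 5 classes, in all 50 members and in the second list of 97 genes both shDROSHA arrays lie above both shNC arrays.

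The members are mostly bright probe sets, and the share of probe sets called rises with signal. Their median signal lay at the 81.1 percentile, and 27 of the 50 fell in the brightest of 5 equal bins of probe sets and 17 in the next. In the brightest bin 8 of 27 members rose (29.6%), against 9.67% of all probe sets called higher there. In the next bin 3 of 17 rose (17.6%), against 3.65%. In the 3 dimmer bins 0 of 6 members rose. The median log2 fold change of all probe sets was 0.02 in the brightest bin and -0.02 in the next.

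**Figure D5:**
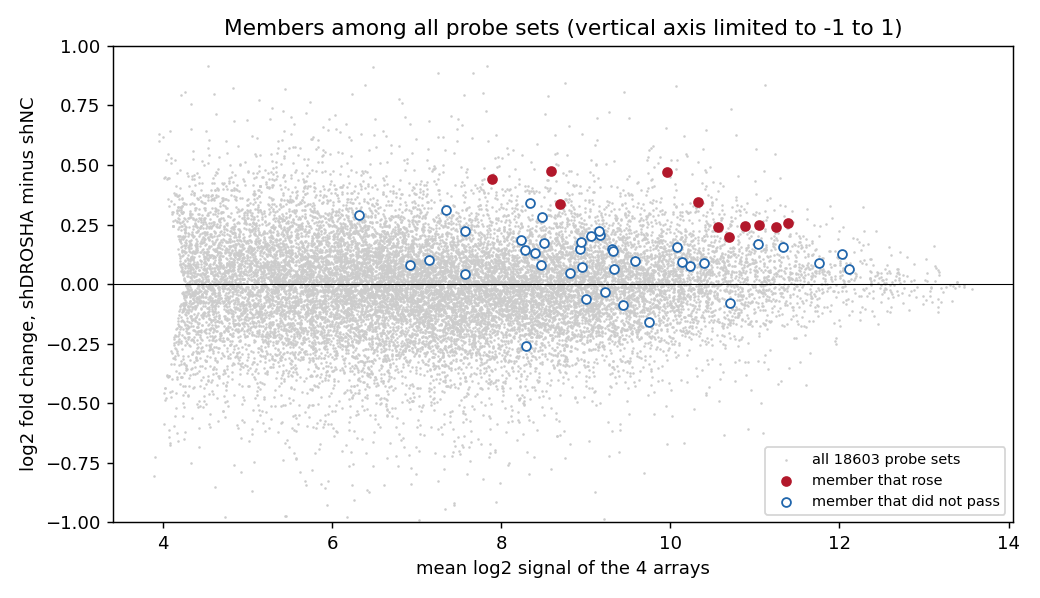
Log2 fold change (shDROSHA minus shNC) against the mean log2 signal of the 4 arrays for all 18603 probe sets in grey, with members that rose as filled points and the other members as open points. The 11 members that rose lie between 0.20 and 0.48, and 44 of the 50 members lie above 0.

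A second list of 104 further genes of the pathway, 97 of them measured, showed a smaller shift in the same direction. Among these 97, 72 lay higher in shDROSHA cells, against 50.2% of all probe sets. In the trended fit 11 rose (11.3%), 1 fell and 85 did not pass, and the median log2 fold change was 0.09. That fit called 3.12% of all probe sets higher and 3.28% lower. The median signal percentile of the second list, 82.6, was close to that of the members. In the brightest signal bin 9.67% of all probe sets were called higher, and 3.65% in the next. The 11.3% pools bright and dimmer genes, so it cannot be set directly against the share of a single bin. The share of the members, pooled likewise, was 22%. By class, 5 of 30 small-subunit factors, 5 of 42 large-subunit factors, 0 of 11 snoRNP assembly factors and 1 of 14 RNA polymerase I factors rose. The 6 with the smallest p were EMG1 and DIMT1, which modify small-subunit ribosomal RNA, NOL11 of UtpA, and the large-subunit factors SBDS, PAK1IP1 and BRIX1. EMG1 had log2 signals of 9.33 and 9.41 in the shDROSHA arrays, against 8.84 and 8.90 in the shNC arrays (log2 fold change 0.50, SE 0.075, adjusted p = 0.00118). SBDS, which frees the large subunit for translation, had 10.51 and 10.60 in the shDROSHA arrays, against 10.20 and 10.24 in the shNC arrays (0.34, SE 0.057, adjusted p = 0.00283). DIMT1 rose by 0.35, NOL11 by 0.34, PAK1IP1 by 0.30 and BRIX1 by 0.40. In each the groups did not overlap, which is no separate evidence for genes picked by small p. The gene that fell was POLR2L, a small subunit shared by all nuclear RNA polymerases, with 10.15 and 10.10 in the shDROSHA arrays, against 10.39 and 10.32 in the shNC arrays (-0.23, SE 0.058, adjusted p = 0.03). NOL11 did not pass without shNC replicate 1 (0.28, adjusted p = 0.0781), nor DIMT1 without shNC replicate 2 (0.33, adjusted p = 0.0627). POLR2L did not pass without shDROSHA replicate 2 (-0.21, adjusted p = 0.0669), shNC replicate 1 (-0.19, adjusted p = 0.254) or shNC replicate 2 (-0.27, adjusted p = 0.0573), nor with each array centred on its median (-0.20, adjusted p = 0.0663). Without shNC replicate 1, 5 genes of the second list rose and 0 fell, and in the constant fit 0 passed. Whether the 2 lists differ was not tested.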

How the data were processed

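Each probe set has 1 deposited log2 signal per array, which the authors made with RMA (background correction, quantile normalization, summary of probes), per the submitters' processing notes. The sources used here do not give the software version, detection calls or any filter. Sorted values of single arrays departed from their mean by up to 0.119, so the rows used are not exactly quantile-normalized. RMA would hide a change shared by most transcripts and compresses differences of dim probe sets.

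Of 18603 probe sets, 15886 had 1 gene symbol, 0 had several and 2717 had none. Symbols were taken through Entrez identifiers from RefSeq (GRCh38.p14), and all 15886 matched. Groups and replicate numbers came from the sample titles. limma 3.58.1 in R 4.3.3 (lmFit, eBayes with an intensity trend) was fitted to all probe sets, with Benjamini-Hochberg adjustment and a threshold of 0.05. Every adjusted p and SE printed comes from this trended limma fit unless the constant limma fit is named. Rose and fell are said of genes past that threshold. The trended fit had 11.9 prior and 2 residual degrees of freedom, the constant fit 3 prior. The residual SD was 0.213 in the dimmest of 5 signal bins and 0.0672 in the brightest, which is why the trend was preferred. For a single gene in 2 against 2 arrays, the smallest two-sided p of an exact permutation test is 0.333, so calls rest on spread pooled across genes. P-values measure only the spread between these arrays, whose number limits the precision.

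The members, classes, second list, motifs and choice of the trended fit were made with earlier results of these data known. Named were the members that passed, the highest and lowest member of each class, the lower members, up to 6 genes per direction of the second list, DROSHA and MYC. Other members were named after their values were seen. Same-numbered arrays' deviations correlated at -0.0218, and the titles do not say what the numbers share. Alternatives were the constant and a robust prior, filters on dim probe sets, repeated quantile normalization, median centring, the replicate number as a block, other thresholds, other handling of several probe sets per gene, and leaving out each array. Motif shares were counted with Python 3.11.15.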

Additional observations from a re-analysis of the deposited data

How the results depend on the processing

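All alternatives were planned, but with earlier results of these data known, as was the choice of the trended fit. Leaving out single arrays, 5 to 14 members passed (main count 11, lowest without shNC replicate 1, highest without shDROSHA replicate 1), as did 5 to 17 genes of the second list (main 12) and 535 to 1949 probe sets of the whole array (main 1192). The median log2 fold change of the members was then 0.119 to 0.176 (main 0.151, lowest without shNC replicate 1), and the small-subunit minus large-subunit median -0.04 to -0.021 (main -0.004). In the constant fit 0 members (12 at an unadjusted p under 0.05 in limma), 0 genes of the second list (16) and 1 probe set (2774, or 14.9%) passed. At 1.5-fold or more 0 members (24 at an unadjusted p under 0.05 in limma's trended fit), 0 genes of the second list (36) and 245 probe sets (3599, or 19.3%) passed, by construction. At adjusted p 0.10 20 genes of the second list and 1824 probe sets passed, also by construction. Centring each array on its median gave a median of 0.184 over the members. The small-subunit minus large-subunit median was 0.028 when probe sets dimmer than the median were removed, and 0.018 with quantile normalization again, so its sign is not settled. NOC2L (-0.03) turned to 0.00 with centring and ran from -0.08 to 0.01 without single arrays, the 0.01 being without shNC replicate 1. With the replicate number as a block, 15 members rose, among them the 11 of the main fit with NOP16, NOP58, NPM1 and UTP6. Calls also grew over the whole array, with 695 probe sets (3.74%) called higher against 581 (3.12%) in the main fit. Outside the constant fit, the 1.5-fold minimum and single arrays left out, 10 to 15 members rose, WDR3 being lost with quantile normalization again (adjusted p = 0.0561). The causes of these differences were not tested. In general a dim member needed a larger difference to pass than a bright member, but the spread of each gene also counted. The SE was 0.101 for MRTO4 and 0.117 for the brighter UTP6.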
